A study of Mus musculus with 71 samples.

Results

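The mitochondrial ribosomal protein genes of male mouse embryonic stem cells (mESCs) were followed through a SLAM-seq time course with and without inhibition of the m6A writer METTL3. Members were all genes whose symbol is Mrpl or Mrps followed by a number and at most 1 letter, and 76 of the 21527 genes in the tables matched, 47 Mrpl genes and 29 Mrps genes. The mitochondrial ribosome translates the few proteins encoded by mitochondrial DNA, which are core subunits of the respiratory chain and of ATP synthase. Its rRNAs come from mitochondrial DNA, but all of its proteins are encoded in the nucleus, translated in the cytosol and imported. Some of them have a counterpart in the bacterial ribosome, and others are found only in mitochondria.

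SLAM-seq labels RNA with 4-thiouridine (s4U), which is read as T-to-C conversions after alkylation, and the loss of conversions during a chase with uridine measures RNA decay. METTL3 is the catalytic subunit of the complex that writes m6A on mRNA, a mark best known for promoting mRNA decay, and STM2457 is a small-molecule inhibitor of it. The male mESCs, grown with LIF and inhibitors of 2 kinases (2i), received 100 µM s4U for 24 h. They were then chased for 0, 1, 1.5, 2.3, 3.5, 5.3, 8 or 12 h, with 20 µM STM2457 or with the solvent DMSO from 6 h before the chase until the harvest. The 71 libraries form 18 groups, the 8 time points and 1 group without s4U in each treatment, with 4 replicates per group except 3 in STM2457 at 3.5 h. The labels do not give the length of treatment of the libraries without s4U.

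Libraries held 4539726 to 7368244 reads on 3′ UTRs (median 5726508), of which the mitochondrial ribosomal protein genes held 0.847 to 1.08%. All 76 genes passed the filter on low counts, as did 12659 genes in total. Replicates differed by more than sampling noise in each of the 105 pairs, and the study describes its replicates as biologically independent, which the labels do not state. No molecular identifiers are stated for the reads, so intervals from counting alone would be too narrow. Pluripotency markers were present, with 8 of the 10 listed genes at 10 CPM or more (CPM, read count of a gene divided by all counted reads, times 1000000) and Pou5f1 at 819 CPM. The markers listed for other cell types summed to 63.1 to 156 CPM in DMSO and 63.4 to 127 CPM in STM2457 libraries. Of the 12 listed, 4 had a mean of 10 CPM or more in DMSO and 5 in STM2457, with Cdx2 highest at 21.3 CPM over all libraries. In each treatment 5 had a mean under 1 CPM, and among them Postn was at 0 throughout. In bulk RNA, fewer cells and less RNA per cell cannot be told apart, and all levels are relative to the other RNA of a library.

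A set of 7 libraries stood apart from the rest of their groups, with an SD of log2 CPM deviations over genes of 0.412 to 0.617, against a median of 0.315 in the others. They were 1 library of each treatment without s4U, 2 of DMSO and 2 of STM2457 at 1 h, and 1 of DMSO at 5.3 h. The first component of the deviations within groups (18.9% of their variance) served as a library score. This score did not overlap between DMSO at 0 h (−1.37 to 0.266) and at 12 h (0.424 to 0.763), nor between DMSO (−1.67 to 0.000374) and STM2457 (0.688 to 0.785) at 1.5 h. The main comparisons were therefore also fitted without the 7 libraries and with the score in the model.

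The most common sequence context of m6A is GGAC followed by A, C or T, and each of the 76 longest protein-coding transcripts held at least 1 such match. The median was 5 matches, or 3.27 per kb of a median length of 1368 bases, compared with 11 matches, or 3.67 per kb of 3088 bases, in the transcripts of all 12227 protein-coding genes tested. GGACT alone occurred in 64 transcripts (84.2%) of the mitochondrial ribosomal protein genes and in 92.7% of all. For the 6 genes with the largest or most lasting count differences, the last match that lies within 1 exon is shown with its surroundings, with the 5 letters in capitals. A match describes the sequence and says nothing about whether the site is methylated.
Mrps2: ttaagctataGGACCcatctttgtg
Mrpl46: aggacagattGGACAgcttatttct
Mrpl43: gtgagttccaGGACAacccagtctc
Mrpl50: tcatctcttgGGACTaacggagatt
Mrpl47: aactcaaggtGGACTcctgttcaga
Mrps22: gggaagaacgGGACAgagtgataca

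On GRCm38 with GENCODE M21 annotation, these windows lie in the last exon, in the 3′ UTR, at chr2:28471028-28471052 on the plus strand for Mrps2, and on the minus strand at chr7:78775267-78775291 for Mrpl46, chr19:45005185-45005209 for Mrpl43, chr4:49512704-49512728 for Mrpl50 and chr3:32726147-32726171 for Mrpl47. The window of Mrps22 is coding and lies in exon 4 of 8, at chr9:98594737-98594761 on the minus strand. The whole transcripts held 8 matches in Mrps2, 9 in Mrpl46, 7 in Mrpl43, 9 in Mrpl47, and 2 each in Mrpl50 and Mrps22. The numbers of matches overlapped between the genes with higher counts in STM2457, the first 4, and those with lower counts, the last 2. These genes were chosen by their count differences, and matches were not compared with the direction of change over all members.

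The genes were spread over 17 chromosomes, with 11 on chromosome 11, 8 on chromosome 17 and none on the X chromosome. Of the 76, 33 (43.4%) had the start of another gene on the opposite strand within 1000 bp, compared with 15.99% of the 12279 protein-coding genes tested. Mrpl46 and Mrps11 are such a pair, with starts 412 bp apart. In the 300 bases around the start in RefSeq (GRCm38.p6; 67 members and 9895 genes matched by symbol, both strands searched), the YY1 motif AAGATGGC occurred in 12 members (17.9%) and in 4.72% of all genes. The ETS family motif CCGGAAG occurred in 23 members (34.3%) and 18.03% of all.

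Mean levels of the mitochondrial ribosomal protein genes ranged from 28.9 to 429 CPM, a scale that in a 3′ end assay does not grow with transcript length. The highest were Mrpl12 with 429 ± 66.6 CPM (SD over the 71 libraries), Mrpl34 with 319 ± 87.8 CPM and Mrpl18 with 315 ± 67.97 CPM. Mrpl12 belongs to the stalk of the large subunit, where translation factors bind, and Mrpl18 and Mrpl34 are large subunit proteins with bacterial counterparts. The lowest were Mrpl41 with 28.9 ± 5.93 CPM, Mrpl36 with 31.6 ± 7.00 CPM and Mrpl32 with 33.7 ± 10.5 CPM. Mrpl34 and Mrpl18, which are neighbours in this order, did not differ beyond their spread, nor did the 3 lowest genes. Reads that also map elsewhere made up most of the counts of Mrps36 (98.8%), Mrps21 (98.0%), Mrps18b (96.0%), Mrpl23 (89.4%), Mrps33 (82.0%), Mrpl48 (81.7%), Mrpl22 (80.4%), Mrpl19 (58.7%), Mrps10 (56.2%) and Mrpl9 (50.3%), so that values of these genes are uncertain.

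To determine how METTL3 inhibition changed these transcripts over the whole time course, counts were first compared as the mean difference over the 8 labelled time points. Of the 76 genes, 17 were higher in STM2457 and 23 were lower, and the other 36 did not pass the test (edgeR quasi-likelihood test, Benjamini-Hochberg adjusted p under 0.01 over all genes tested). Changes were small in most genes, from 0.17 to 0.77 on the log2 scale in those that rose and from −0.44 to −0.13 in those that fell. Of all genes tested, 26.5% were called in this comparison, 1763 higher and 1594 lower. The median log2 fold change was −0.01 over the 76 genes and −0.01 over all genes. With the library score in the model, 34 of the 40 calls were kept, and 19 genes were higher and 20 lower. Without the 7 libraries that stood apart, 38 of the 40 were kept.

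By subunit and origin, large subunit proteins with a bacterial counterpart fell more often than they rose, with 4 of 29 higher and 11 lower. Those of the large subunit found only in mitochondria split into 6 higher and 7 lower of 20. In the small subunit, 5 rose and 1 fell among 16 proteins with a bacterial counterpart, and 2 rose and 3 fell among 10 found only in mitochondria. The differences between these classes were not tested. Mrps36, which was also lower, was in no class, since its product is known mainly as a part of the 2-oxoglutarate dehydrogenase complex.

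Mrps2, a small subunit protein with a bacterial counterpart, had the most lasting difference. At 0 h its level was 84.8, 72.6, 126 and 100 CPM in the 4 DMSO libraries and 171, 155, 147 and 168 CPM in the 4 STM2457 libraries. At 12 h it was 105, 117, 134 and 124 CPM in DMSO and 208, 190, 188 and 157 CPM in STM2457. The groups did not overlap at any of the 8 time points, nor without s4U, where levels were 99.7 ± 12.8 CPM in DMSO and 165 ± 7.92 CPM in STM2457 (mean ± SD, n = 4 each). Mrps2 passed edgeR's quasi-likelihood test at each time point, with log2 fold changes of 0.64 to 0.98, and its mean difference was 0.77 ± 0.04 (SE, adjusted p = 1.21e-25).

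Mrpl46 and Mrpl43, large subunit proteins found only in mitochondria, were higher in STM2457 over the 8 time points, and the difference of Mrpl46 grew between 0 h and 12 h. Mrpl46 had 92.9, 77.9, 66.5 and 72.7 CPM in DMSO and 122, 109, 82.6 and 91.6 CPM in STM2457 at 0 h, with overlapping groups. At 12 h it had 73.1, 74.9, 76.7 and 65.8 CPM in DMSO and 182, 164, 159 and 150 CPM in STM2457, without overlap. Its log2 fold change was 0.41 at 0 h and 1.21 ± 0.12 at 12 h, with adjusted p = 0.0395 and 8.82e-12 in edgeR's quasi-likelihood test. Without s4U, Mrpl46 did not pass (−0.10, adjusted p = 0.705). Mrps11, whose start faces that of Mrpl46, did not pass in any of these comparisons, with −0.09 at 12 h and 0.07 as the mean difference.

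Mrpl43 had 119, 124, 105 and 110 CPM in DMSO at 0 h, against 160, 186, 160 and 141 CPM in STM2457. At 12 h the values were 93.6, 79.2, 119 and 92.3 CPM in DMSO and 243, 190, 217 and 198 CPM in STM2457. The STM2457 libraries were above all DMSO libraries at both times. The log2 fold change was 0.52 at 0 h (adjusted p = 0.0143, not called), 1.18 ± 0.14 at 12 h (8.29e-10) and 0.73 ± 0.05 as the mean difference (6.49e-21) in edgeR's quasi-likelihood test. The change of this difference from 0 h to 12 h did not pass the threshold of 0.01 (0.66, adjusted p = 0.0456).

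Mrpl47, a large subunit protein near the exit of the peptide tunnel, and Mrps22, a small subunit protein found only in mitochondria, had the strongest decreases by adjusted p. Mrpl47 had 127, 121, 142 and 128 CPM in DMSO and 84.6, 85.7, 102 and 103 CPM in STM2457 at 12 h. Mrps22 had 80.8, 90.3, 101 and 92.5 CPM in DMSO and 49.95, 60.04, 64.8 and 67.8 CPM in STM2457. Neither pair of groups overlapped. The mean difference over the 8 time points was −0.44 ± 0.04 for Mrpl47 (adjusted p = 2.65e-15) and −0.42 ± 0.04 for Mrps22 (6.07e-13) by edgeR's quasi-likelihood test. Mrpl3 (−0.27 ± 0.04, adjusted p = 2.96e-07) and Mrpl1 (−0.39 ± 0.06, 3.54e-07), whose bacterial counterparts lie at the peptidyl transferase centre and on the L1 stalk, also fell. The difference of Mrpl1 was uneven over time. Its means in DMSO and STM2457 were 63.2 and 37.6 CPM at 1.5 h, where the library score did not overlap between treatments. They were 71.5 and 36.8 CPM at 5.3 h, and 43.9 and 38.6 CPM at 12 h.

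**Figure D1:**
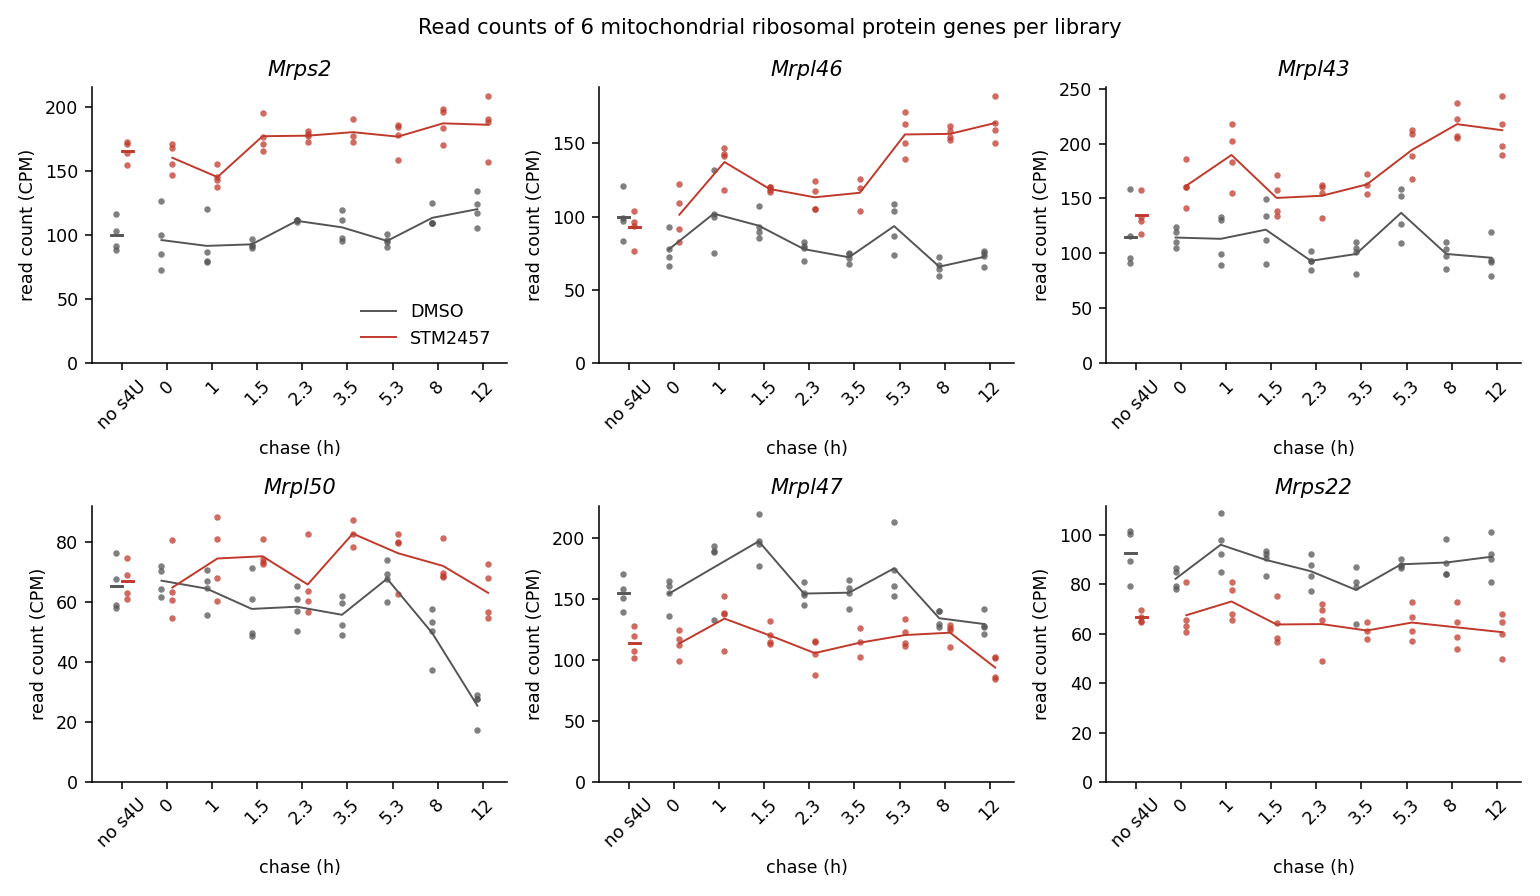
Read counts in CPM of 6 mitochondrial ribosomal protein genes in each library, by time point of the chase in h (equally spaced) and without s4U, with DMSO in grey and STM2457 in red; points are libraries and lines or bars join or mark group means. Mrps2 was higher in STM2457 at every time point, Mrpl46 differed more at 12 h than at 0 h, Mrpl43 was higher in STM2457 at 0 h and 12 h, Mrpl50 fell in DMSO to 25.5 CPM at 12 h, and Mrpl47 and Mrps22 had lower means in STM2457 throughout.

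The 3 paralogs of bacterial ribosomal protein S18 differed in direction over the 8 time points. Mrps18a (0.17 ± 0.05, adjusted p = 0.00564), which is part of the large subunit, and Mrps18b (0.20 ± 0.04, 1.16e-05) were higher in STM2457. Mrps18c, the paralog at the bacterial position in the small subunit, was lower (−0.33 ± 0.06, 3.03e-05, all by edgeR's quasi-likelihood test). Nearly all Mrps18b reads also map elsewhere, as given above.

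Single time points differed in how many of these genes were called, without a steady rise over the chase, and so did the share of all genes called. At 0 h, after 6 h of STM2457, Mrps2 alone was called, beside 1.68% of all genes. At 1 h, 2 were higher and 1 lower (all genes, 1.53%), at 2.3 h 3 were higher and 2 lower (1.61%), and at 3.5 h 3 were higher (1.3%). At 5.3 h, 7 were higher and 7 lower (4.45%), and at 8 h, 6 were higher and 1 lower (2.34%). At 1.5 h, 12 genes were lower and 2 higher, beside 8.18% of all genes, and the library score did not overlap between treatments there. At 5.3 h the score overlapped only in part, with −2.29 to 0.107 in DMSO and −0.113 to 0.396 in STM2457. The part of the score at 1.5 h and at 5.3 h was not tested.

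At 12 h, after 18 h of STM2457, 13 mitochondrial ribosomal protein genes were higher and 2 lower, beside 5.41% of all genes. The median log2 fold change was 0.15 over the 76 genes, with 50 of them above 0, and −0.03 over all genes. At 0 h the medians were −0.10 and 0.01. The genes that rose were Mrpl46, Mrpl50, Mrpl43, Mrpl16, Mrpl15, Mrpl36, Mrps2, Mrps12, Mrpl20, Mrpl14, Mrpl51, Mrps33 and Mrpl44, by 0.49 to 1.36 on the log2 scale, and Mrps22 (−0.54, adjusted p = 7.52e-04) and Mrpl47 (−0.42, 0.00601) fell by edgeR's quasi-likelihood test. By class, the higher genes were 5 of 29 and 5 of 20 in the large subunit, with and without a bacterial counterpart, and 2 of 16 and 1 of 10 in the small subunit. All 15 were also called with the library score in the model. They were called without the 7 libraries that stood apart too, but none of those is at 12 h. That fit keeps every library at 12 h, so it cannot show whether the calls depend on single libraries there.

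**Figure D2:**
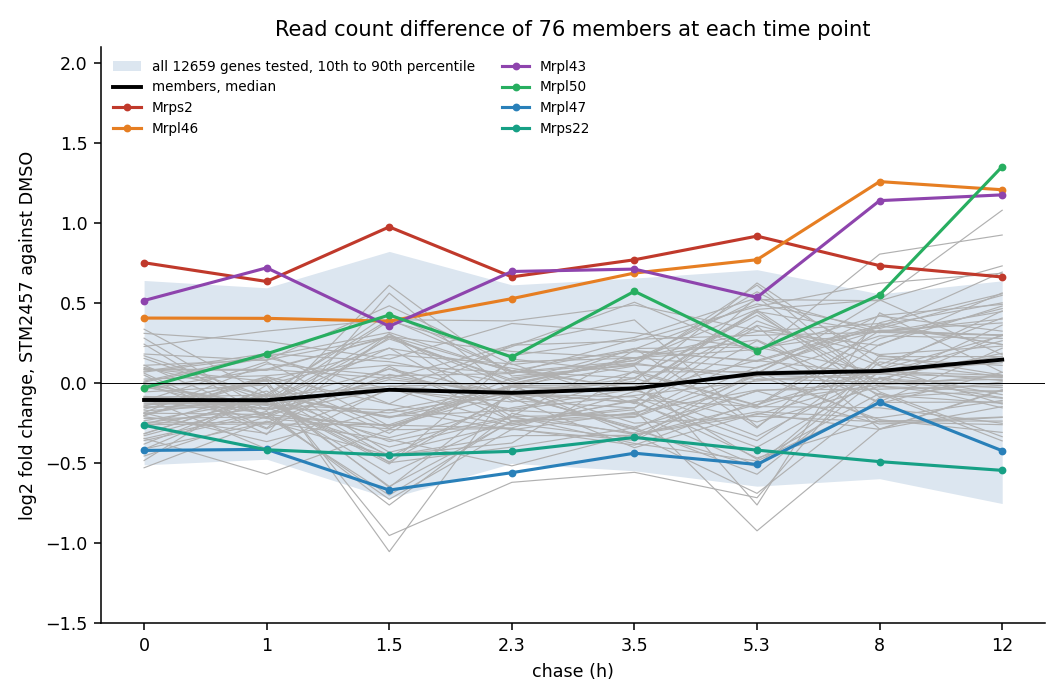
Log2 fold change of read counts, STM2457 against DMSO, at each time point of the chase in h (equally spaced), for the 76 mitochondrial ribosomal protein genes (grey lines), their median (black) and 6 named genes, with the 10th to 90th percentile of all 12659 genes tested as a band. The median rose from −0.10 at 0 h to 0.15 at 12 h, and Mrpl50, Mrpl46 and Mrpl43 were above the band at 12 h.

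Libraries without s4U gave a comparison that the labelling does not touch. Mrps2 was higher in STM2457 (0.73, adjusted p = 7.03e-06 in edgeR's quasi-likelihood test), and Mrpl57, Mrpl35, Mrps22 and Mrpl47 were lower, beside 2.58% of all genes called. Mrpl57, a small large-subunit protein found only in mitochondria, had 82.9, 113, 98.8 and 96.3 CPM in DMSO and 71.1, 70.1, 61.6 and 71.0 CPM in STM2457, without overlap (−0.50 ± 0.12, adjusted p = 0.00429). Mrpl35 had 135, 159, 145 and 187 CPM in DMSO and 89.0, 89.4, 127 and 111 CPM in STM2457, also without overlap (−0.57 ± 0.14, 0.00655). The medians were −0.15 over the 76 genes and 0.00 over all genes. Without the 7 libraries that stood apart, which include 1 of each treatment here, 2 of the 5 genes were called.

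Next, counts at 12 h and 0 h were compared within each treatment, with the 0 h and 12 h libraries shared between these and the preceding comparisons. In DMSO, 19 of the 76 genes fell and none rose, while 8.2% of all genes fell and 13% were called in either direction. The median change was −0.23 over the 76 genes and 0.04 over all genes. In STM2457, 7 of them rose and none fell, while 1.69% of all genes rose and 4.72% were called in either direction. There the medians were 0.06 and 0.00. That none fell there depends on the libraries and the model, since 5 were lower and 9 higher with the library score in the model, 3 lower and 10 higher without the 7 libraries that stood apart, and 3 lower and 4 higher without STM2457 replicate 4.

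Mrpl50, a large subunit protein found only in mitochondria, fell most in DMSO. It had 72.0, 61.8, 64.5 and 70.5 CPM at 0 h and 27.8, 27.7, 29.2 and 17.3 CPM at 12 h, without overlap. In STM2457 it had 80.9, 63.3, 60.8 and 54.6 CPM at 0 h and 54.6, 56.8, 72.9 and 68.2 CPM at 12 h, with overlapping groups. The change was −1.54 ± 0.15 in DMSO (adjusted p = 1.39e-12) and −0.15 in STM2457 (0.574) by edgeR's quasi-likelihood test. In DMSO, mean levels of Mrpl50 lay between 55.8 and 67.8 CPM from 0 h to 5.3 h and were 49.7 ± 8.84 CPM at 8 h and 25.5 ± 5.50 CPM at 12 h (SD, n = 4). In STM2457 they lay between 63.1 and 82.9 CPM at all 8 time points.

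Mrpl36, whose bacterial counterpart is the smallest protein of the large subunit, had 38.9, 30.4, 37.5 and 29.4 CPM at 0 h and 13.4, 22.8, 19.4 and 11.95 CPM at 12 h in DMSO. In STM2457 it had 31.4 ± 5.02 CPM at 0 h and 34.9 ± 5.11 CPM at 12 h (mean ± SD, n = 4). The DMSO groups did not overlap, and the change was −1.14 ± 0.18 in DMSO (edgeR's quasi-likelihood test, adjusted p = 1.90e-06). Mrps33 (−0.95 ± 0.17, 2.16e-05), with mostly multimapping reads, and Mrpl18 (−0.70 ± 0.12, 4.59e-06) also fell in DMSO. The fall of Mrpl18 was not steady, with DMSO means of 365 CPM at 0 h, 281 at 3.5 h, 398 at 5.3 h and 246 at 12 h. At 5.3 h its DMSO libraries had 298, 331, 457 and 506 CPM, with library scores of 0.107, −0.429, −2.11 and −2.29.

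In STM2457, the genes that rose between 0 h and 12 h were Mrps12, Mrpl15, Mrpl14, Mrpl46, Mrps25, Mrpl20 and Mrpl16. Mrps12, the counterpart of the bacterial decoding-centre protein S12, had 118, 108, 129 and 128 CPM at 0 h and 180, 207, 191 and 207 CPM at 12 h, without overlap (0.59 ± 0.11, adjusted p = 7.12e-05 by edgeR's quasi-likelihood test). Mrpl14 had 59.9, 65.6, 57.95 and 61.4 CPM at 0 h and 123, 112, 116 and 107 CPM at 12 h, also without overlap (0.79 ± 0.16, 4.76e-04). In DMSO, the change was −0.002 for Mrps12 and 0.13 for Mrpl14, and neither passed.

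The change over the chase itself differed between treatments in 9 of the 76 genes, all with a higher value in STM2457, while 0.916% of all genes differed in this direction and 1.11% in either. They were Mrpl50 (1.38, adjusted p = 7.95e-06), Mrpl16 (0.92, 0.00059), Mrpl20 (0.72, 8.91e-04), Mrpl54 (0.98, 0.00191), Mrpl46 (0.80, 0.00214), Mrpl36 (1.18, 0.00221), Mrps33 (1.08, 0.00422), Mrpl15 (0.60, 0.00528) and Mrpl51 (0.68, 0.00828) in edgeR's quasi-likelihood test of the interaction. Of these, 8 encode large subunit proteins, and Mrps33 a small subunit protein found only in mitochondria. The median over the 76 genes was 0.26, with 54 above 0, and −0.03 over all genes. The reads of Mrpl51 were 34.1% multimapping.

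In DMSO the library score was higher at 12 h than at 0 h, but it did not follow the chase steadily. It was 0.593 to 0.804 at 3.5 h and −2.29 to 0.107 at 5.3 h. With the score in the model, 12 of the 19 decreases in DMSO were still called, as were all 7 increases in STM2457 and all 9 genes whose change differed. Without the 7 libraries that stood apart, all 19, all 7 and all 9 were called, but none of those libraries is at 0 h or 12 h. That fit keeps every library compared here, so it cannot show whether the calls depend on single libraries. Leaving out a single replicate cost more calls, with 9 of the 19 still called without DMSO replicate 1, and 2 of the 7 and 4 of the 9 without STM2457 replicate 3. With library size alone as normalization, the median change of all genes shifted to 0.178 in DMSO, and 10 genes were lower and 3 higher there. In STM2457 it shifted to 0.118, with 11 genes higher.

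**Figure D3:**
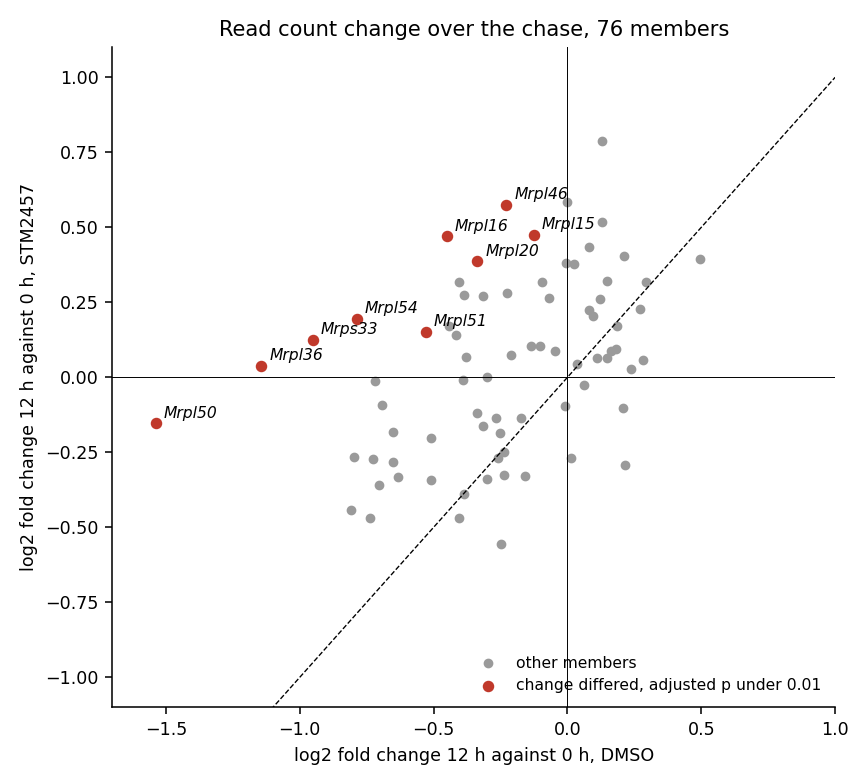
Log2 fold change of read counts at 12 h against 0 h of chase in DMSO (x axis) and in STM2457 (y axis) for the 76 mitochondrial ribosomal protein genes, with the line of equal change dashed. The 9 genes whose change differed between treatments at an adjusted p under 0.01 are named in red, and all of them lie above the line, with Mrpl50 at −1.54 in DMSO and −0.15 in STM2457.

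The other ribosome and the other parts of mitochondrial translation did not all move in this way. Of 82 cytosolic ribosomal protein genes, 49 fell between 0 h and 12 h in DMSO (median −0.40) and 32 in STM2457 (median −0.40), and in none did the change differ between treatments. At 12 h, 1 of the 82 was higher in STM2457 and none lower. Of 5 mitochondrial ribosomal protein genes outside the name pattern, 1 was higher over the 8 time points (Gadd45gip1, 0.35 ± 0.04, adjusted p = 8.30e-12 by edgeR's quasi-likelihood test) and 3 were lower, among them Dap3 (−0.22 ± 0.04). In this list, 2 fell in DMSO between 0 h and 12 h, and in 1 the change differed.

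Among 21 assembly factors of the mitochondrial ribosome, 8 were higher and 5 lower over the 8 time points. The rRNA-binding factor Mterf4 (1.11 ± 0.05, adjusted p = 5.20e-29), the rRNA methyltransferase Mrm3 (0.80 ± 0.05, 1.24e-20) and the helicase Ddx28 (0.62 ± 0.06, 8.67e-15) rose by edgeR's quasi-likelihood test. Among 14 mitochondrial translation factors, 3 rose and 3 fell, with the initiation factor Mtif3 at 0.58 ± 0.07 and the recycling factor Gfm2 at −0.46 ± 0.07. Among 17 mitochondrial aminoacyl-tRNA synthetases, 4 rose and 3 fell, with Ears2 at 0.74 ± 0.07 and Rars2 at −0.49 ± 0.08. The change over the chase differed between treatments in 2 of the 21 assembly factors, with a higher value in STM2457. It differed in none of the translation factors or synthetases. At 12 h, 4 assembly factors were higher in STM2457 and 1 was lower, and 1 synthetase was higher. Of 9 pluripotency markers tested, 4 were higher over the 8 time points, among them Esrrb at 0.64 ± 0.05 and Zfp42 at 0.69 ± 0.07, and 1 was lower, Tdgf1 at −0.44 ± 0.05. Of 7 markers of other cell types tested, T (−0.44 ± 0.10) and Nes (−0.34 ± 0.09) were lower. Between 0 h and 12 h in DMSO, 5 pluripotency markers fell (median −0.44), and their part in the decreases of the mitochondrial ribosomal protein genes was not tested.

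Labelling was then measured as the conversion rate, the share of covered T positions read as C. At 0 h the median rate of 74 mitochondrial ribosomal protein genes with a decay fit, after subtraction of the libraries without s4U, was 1.25% in DMSO and 1.19% in STM2457, compared with 1.32% and 1.22% over all transcripts. In the libraries at 0 h, before subtraction, the rate over the mitochondrial ribosomal protein genes was 1.20, 1.44, 1.34 and 1.31% in DMSO and 1.13, 1.28, 1.30 and 1.23% in STM2457, which overlap, with STM2457 lower in each of the 4 pairs of libraries with the same replicate number. No gene passed an adjusted p under 0.05 in edgeR's quasi-likelihood test of conversions, neither of these 76 nor of all 10825 tested (0%). At an unadjusted p under 0.05 there were 3 of the 76 and 661 of all, and limma gave 0 of the 76. With the replicate number as a block, 0 of the 76 and 4 of all were called in edgeR's test. The smallest p was that of Mrpl18, with rates of 1.20, 1.70, 1.55 and 1.24% in DMSO and 1.21, 1.23, 1.05 and 1.17% in STM2457 at 0 h, which overlap (−0.29 ± 0.11 on the log2 scale, adjusted p = 0.679). Mrps18c had 0.845, 1.06, 1.11 and 1.55% in DMSO and 1.20, 1.46, 2.24 and 1.69% in STM2457, which also overlap (0.53 ± 0.24, adjusted p = 0.775).

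During the chase, mitochondrial ribosomal protein transcripts had a higher median share of conversions left than all transcripts from 1.5 h on in both treatments. In DMSO their median was 71.0% of the 0 h rate at 3.5 h, 29.7% at 5.3 h, 16.4% at 8 h and 6.13% at 12 h, compared with 59.5, 14.4, 6.85 and 3.20% over all transcripts. In STM2457 it was 70.2, 36.4, 20.2 and 6.91%, compared with 60.2, 18.3, 7.71 and 2.47%. The loss was not smooth, since the DMSO median of these genes was higher at 2.3 h (84.9%) than at 1.5 h (80.2%), while over all transcripts it was 74.8% at 2.3 h and 75.03% at 1.5 h. Between 3.5 h and 5.3 h it dropped steeply in these genes and in all transcripts.

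**Figure D4:**
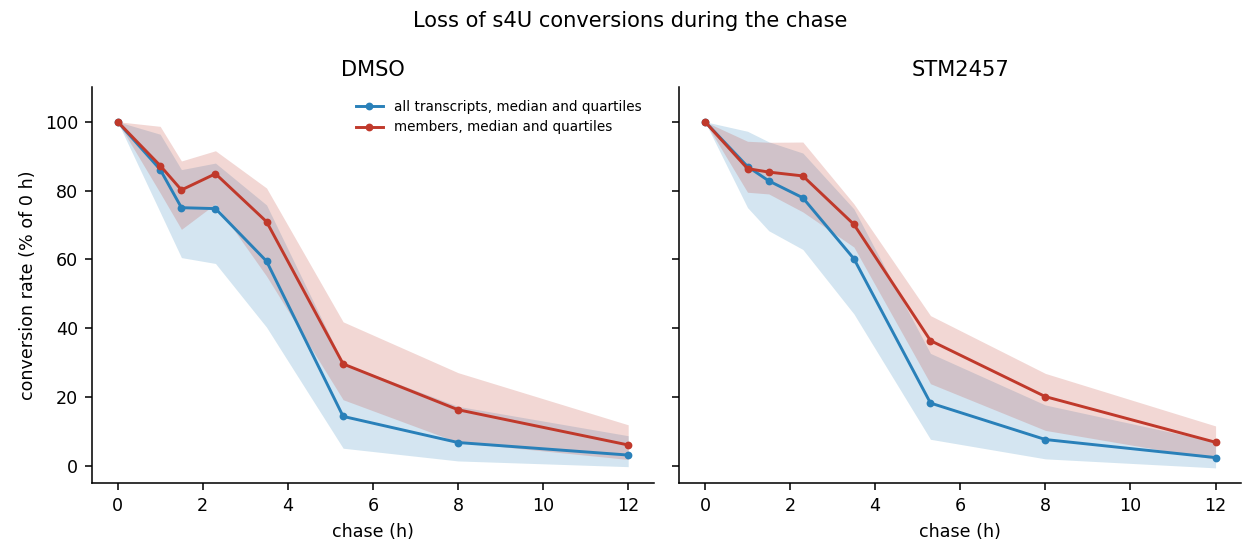
Conversion rate in percent of the rate at 0 h, against the time of chase in h, in DMSO (left) and STM2457 (right), with median and quartiles of 74 mitochondrial ribosomal protein genes in red and of all 7394 transcripts with a half-life in blue. At 5.3 h the medians were 29.7% and 14.4% in DMSO and 36.4% and 18.3% in STM2457.

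Half-lives from an exponential fit were valid in both treatments for 74 of the 76 genes, the exceptions being Mrpl47 and Mrpl48, and for 7394 transcripts in all. The DMSO median of these genes was 4.23 h and the STM2457 median 4.40 h, compared with 3.19 h and 3.45 h over all transcripts. Over the 4 replicate series of each treatment, the median of 67 genes was 4.78, 3.80, 4.08 and 4.12 h in DMSO and 5.06, 4.26, 4.20 and 3.79 h in STM2457. The series overlapped, with 4.19 ± 0.41 h in DMSO and 4.33 ± 0.53 h in STM2457 (SD, n = 4), and STM2457 series 4 lacks 3.5 h. The half-life was longer in STM2457 in 42 of 74 genes (median log2 ratio 0.13) and in 56.7% of all transcripts (0.07). Without single replicates the median log2 ratio of these genes was 0.05 to 0.15, and without STM2457 replicate 1 it was 0.05, with 0.02 over all transcripts. Their median half-life was then 4.18 h in STM2457 and 4.22 h in DMSO, in the opposite order.

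Half-lives spread widely over the parts of the translation machinery. In DMSO the median was 5.22 h for small subunit proteins with a bacterial counterpart (16 genes), 4.22 h for those of the large subunit (28), 3.99 h for large subunit proteins found only in mitochondria (19) and 3.70 h for those of the small subunit (10). It was 2.51 h for assembly factors (17 genes), 2.64 h for mitochondrial aminoacyl-tRNA synthetases (11), 4.01 h for mitochondrial translation factors (11) and 11.2 h for cytosolic ribosomal proteins (74). The log2 ratio of STM2457 to DMSO had a median of 0.21 in large subunit genes with a bacterial counterpart, with 19 of 28 longer, and of −0.16 in cytosolic ribosomal protein genes, with 19 of 74 longer. Differences between these lists are descriptions and were not tested.

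The longest half-lives in DMSO were 9.21 h for Mrpl23, a protein at the peptide tunnel exit whose counts are mostly multimapping, 8.90 h for Mrps15 and 8.23 h for Mrps18c. The shortest were 2.34 h for Mrpl19, 2.34 h for Mrps2 and 2.52 h for Mrpl46. The series of Mrps15 ranged from 3.80 to 16.3 h in DMSO. Those of Mrps18c ranged from 2.96 to 77.9 h, the highest being beyond the limit of 18 h. The places of Mrps15 and Mrps18c in the order are therefore loose. The order of Mrpl19, Mrps2 and Mrpl46 is likewise within the spread of their series.

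Tested gene by gene, 0 of 67 mitochondrial ribosomal protein genes and 0 of 5761 transcripts in all (0%) differed in half-life between treatments at an adjusted p under 0.05 (limma, log2 scale, 4 series each). At an unadjusted p under 0.05 there were 6 genes and 405 transcripts. The call depends on the measure, since limma's test of the slopes of log2 rates over single libraries called 21 of 74 genes, Mrpl57 among them, and 817 of 5616 transcripts, 225 with slower and 592 with faster loss in STM2457. The smallest p was that of Mrpl57, with 2.12, 2.66, 3.55 and 3.72 h in the DMSO series and 4.75, 4.72, 7.98 and 9.27 h in the STM2457 series, without overlap (1.12 ± 0.32 on the log2 scale, adjusted p = 0.668). Mrpl46 followed with 1.95, 3.95, 2.91 and 1.87 h in DMSO and 5.06, 3.55, 5.28 and 4.49 h in STM2457, with overlap (0.83 ± 0.30, adjusted p = 0.668).

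By the ratio of half-lives, Mrpl57 (2.91 h to 6.33 h), Mrpl46 (2.52 h to 4.62 h) and Mrpl43 (3.52 h to 6.30 h) had the largest increases in STM2457. The largest decreases were those of Mrps18c (8.23 h to 2.95 h), Mrps15 (8.90 h to 5.01 h) and Mrpl23 (9.21 h to 5.33 h), which are also the 3 genes with the longest half-lives in DMSO. The ratio divides by the DMSO half-life, so these 2 rankings are not independent. A relation between half-life and its change was not tested. Mrps2 had 2.34 h and 3.72 h, with series of 2.31, 2.03, 2.99 and 2.19 h in DMSO and 6.50, 3.20, 3.65 and 2.39 h in STM2457, which overlap. The other S18 paralogs had 3.99 h and 2.93 h (Mrps18a) and 3.23 h and 3.51 h (Mrps18b). None of these genes passed limma's test, which left out Mrps18c for lack of a valid half-life in every series.

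**Figure D5:**
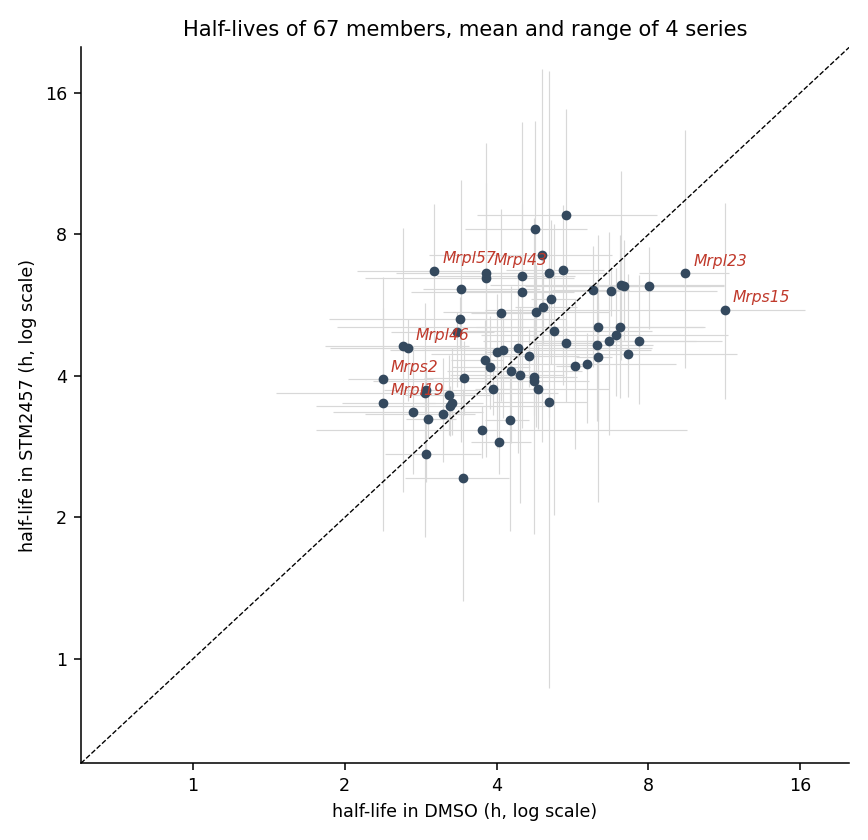
Half-life in h (log scales) in DMSO (x axis) and STM2457 (y axis) of 67 mitochondrial ribosomal protein genes with a fit in every series, as the mean (points) and the range (bars) over 4 replicate series, with the line of equality dashed. Mrpl57, Mrpl46 and Mrpl43 lie above the line and Mrpl23 and Mrps15 below it.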

How the data were processed

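SLAM-seq libraries were grouped by treatment and time point from the sample labels, and hours of chase from the study's scheme of the chase and the times of its fitted curves. The authors mapped QuantSeq 3′ end reads with SLAM-DUNK to GRCm38.p6 (build per the processing notes), masked variants, counted on 3′ UTR windows filtered to GENCODE M23 and collapsed windows per gene. They deposited raw counts of reads, multimapping reads, covered T positions and conversions, and the conversion rate as a fraction. Multimapping reads stay in these counts. 3′ end reads do not cover whole transcripts, so changes outside the windows are not seen.

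Counts of all 71 libraries were fitted together with edgeR 4.0.16 (R 4.3.3, TMM, its filter on low counts, quasi-likelihood test, Benjamini-Hochberg adjustment over all genes tested, threshold 0.01). Conversions were tested with log T coverage as offset (threshold 0.05). CPM are counts divided by library size times 1000000. For half-lives, rates were averaged over replicates, the unlabelled mean was subtracted, and an exponential fixed at the 0 h rate was fitted (Python 3.11.15, numpy 2.4.6, scipy 1.17.1, pandas 2.3.3). T coverage had to exceed 100, half-lives to lie between 0.67 and 18 h and the residual standard error to be at most 0.3. Half-lives of replicate series were tested with limma 3.58.1. DESeq2 1.42.0, other filters and normalizations, replicate blocks and left-out replicates were alternatives. The fits were tested on simulated data. Figures were drawn with matplotlib 3.10.9.

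The genes, lists and tests were chosen with earlier results of these data known. Named genes were taken by rule, as the extremes of level and half-life, up to 4 called genes per direction and comparison, the genes with the smallest p where none was called, and the Mrps18 paralogs. Mrps11, and genes listed only as called or as multimapping, were named after their values were seen. Mrpl33 and Mrpl53 were not analysed here.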

Additional observations from a re-analysis of the deposited data

Results flagged for a closer look

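Of 71 groups of 4 values tested for a single value far from the rest, 6 had one, and chance gives about 1 in 20. The share of reads on mitochondrial ribosomal protein genes had 1 library above the others in DMSO at 0 h (0.974%, others 0.942 to 0.946%), in DMSO at 2.3 h (0.978%, others 0.943 to 0.949%) and in DMSO without s4U (1.04%, others 0.990 to 0.997%). Mrpl50 in DMSO at 12 h had 1 library at 17.3 CPM, below the others at 27.7 to 29.2 CPM. The Mrpl23 half-life in STM2457 was 13.4 h in 1 series and 4.15 to 4.76 h in the others. The Mrps18c half-life in DMSO was 77.9 h in 1 series, beyond the limit of 18 h, and 2.96 to 11.4 h in the others.

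The change in counts between 0 h and 12 h differed between treatments, by an edgeR quasi-likelihood test of the interaction with Benjamini-Hochberg adjustment, in Mrpl50 (1.38), Mrpl16 (0.92), Mrpl20 (0.72), Mrpl54 (0.98), Mrpl46 (0.80), Mrpl36 (1.18), Mrps33 (1.08), Mrpl15 (0.60) and Mrpl51 (0.68, values on the log2 scale, STM2457 minus DMSO).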

How the results depend on the processing

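For the genes named by rule, up to 4 per direction and comparison, no called value changed sign under the alternatives run. The other called genes were not checked for this, and medians near 0 did change sign. Without STM2457 replicate 1 the order of the median half-lives turned (4.22 h in DMSO, 4.18 h in STM2457), and the median log2 difference of half-lives in the series test went from 0.09 to −0.01. The median mean difference of counts went from −0.01 to 0.01 without DMSO replicate 1. Of 540 alternative log2 differences for single genes, 486 stayed on the same side of the threshold, 53 lost the call and 1 gained it (Mrpl57 half-life from slopes). All 214 alternative half-lives of single genes that kept a valid fit, which have no threshold, moved by less than the SD of their series. Lost fits are not counted there. At a residual standard error of at most 0.15, Mrpl23, Mrps15, Mrps18c and Mrpl43 had none (0.183, 0.165, 0.247 and 0.188 in DMSO). The SD is that of fits to single replicates and can be wide, such as 5.57 h for Mrps15 in DMSO. At 0 h the number of genes called was 1, and became 5 at adjusted p under 0.05, 2 with the replicate block, 4 without the 7 libraries that stood apart, 5 with the library score and 4 by DESeq2. Without s4U it was 5, and became 8 at adjusted p under 0.05, 3 with no filter, 1 with only the 2 groups, 2 without the 7 libraries and 8 with the score. For the chase in STM2457 it was 7, and became 12 at adjusted p under 0.05, 11 with library size only, 13 without the 7 libraries and 14 with the score. Tests of log2 rate slopes of single libraries called 21 of 74 genes for decay (817 of 5616 transcripts), against 0 from the series. The cause was not tested. Leaving out single replicates gave 1 to 1 genes at 0 h, 11 to 15 at 12 h, 32 to 38 for the mean, 1 to 7 without s4U, 9 to 21 for the DMSO chase, 2 to 7 for the STM2457 chase, 4 to 8 for the interaction, and 0 for rates and half-lives. The DMSO chase count was 9 without DMSO replicate 1 and 12 without replicate 2. The STM2457 chase count was 3 without STM2457 replicate 2 and 2 without replicate 3. The interaction count was 5 without DMSO replicate 1 or 4 or STM2457 replicate 2 or 4, and 4 without STM2457 replicate 3. Without s4U it was 1 without DMSO replicate 2, 3 or 4 or STM2457 replicate 1 or 2, 3 without STM2457 replicate 3 and 2 without replicate 4. Medians of half-lives without single replicates were 4.07 to 4.35 h in DMSO and 4.18 to 4.55 h in STM2457. Without the 3.5 h time point they were lower, 3.85 h in DMSO and 4.01 h in STM2457, with 2.94 and 3.24 h over all transcripts. The median log2 ratio of the mitochondrial ribosomal protein genes was then 0.13. Both treatments share replicate numbers, but in read counts same-numbered libraries did not deviate together (mean correlations of −0.036 to 0.045 per time point). Conversion rates were lowest in replicate 1 of both treatments at 0, 1.5 and 2.3 h. The replicate block gave 15 genes at 12 h, 38 for the mean, 4 without s4U, 19 and 7 for the chases and 9 for the interaction. The libraries' depth of 4539726 reads or more sets the precision of genes near 30 CPM, which had 61 reads in the lowest library.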
